A study of Carassius auratus with 5 samples.

Results

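Of the 8100 cDNA clones on a goldfish array, 48 carried a description that names a gene of GABA or glutamate signalling. They were picked by words in the clone's description: GABA, gamma-aminobutyric, glutamate decarboxylase or its isoforms, glutamate receptor, NMDA, AMPA, kainate, glutamate transporter, glutaminase, glutamate dehydrogenase and aspartate aminotransferase. The 48 clones stand for 29 genes in 10 roles, and none was chosen by its measured value. Every clone was printed as 2 spots, and the clones were not placed on a genome. Goldfish carry duplicated genes, and whether a spot also binds the transcript of a related gene was not tested.

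GABA is the main inhibitory transmitter of the vertebrate brain and glutamate the main excitatory one. Glutaminase makes glutamate from glutamine, glutamate decarboxylase (GAD) turns glutamate into GABA, and transporters in neurons and glia take both transmitters up again. GABA opens the chloride channel of GABA-A receptors, which are built of several subunits, and acts through GABA-B receptors coupled to G proteins. Glutamate opens AMPA, kainate and NMDA channels and acts through metabotropic receptors. Radial glia of the teleost telencephalon are rich in aromatase, which turns androgens into estrogens, and sex steroids are known to alter GABA synthesis in the fish forebrain.

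All fish were sexually mature females, anaesthetized with MS222 before the telencephalon was taken. One side of every array held RNA from 1 of 5 independent groups of goldfish kept in water with fadrozole, an aromatase inhibitor, at 50 µg/L. The other side held RNA from a single pool of fish kept in untreated water, the same pool on all 5 arrays. Exposed RNA carried Cy3 and the pool Cy5 throughout, with no dye swap, so that a dye effect and the exposure cannot be told apart. The number of fish in a group, their age in numbers and the length of exposure are not given in the sources used here. Since the pool has no replicates, the spread over arrays leaves out the spread between unexposed fish. In tissue of many cell types, fewer cells of a type and less RNA per cell cannot be told apart.

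Values are log2 ratios of exposed over pool, given for replicates 1 to 5 in that order and then as the mean ± SD (n = 5), so that a negative value means less signal in the exposed fish. Across arrays, the median spot intensity was 63.0 to 96.4 scanner units in the pool channel and 122 to 386 in the exposed channel. The exposed channel stood above its local background, by 2 background SDs, at 22.7% to 64.8% of the clone spots, and the pool channel at 79.4% to 90.7%. Ratios of the same clones correlated weakly between arrays, with Pearson's r of 0.111 to 0.306 across clones, which share the arrays and are not independent replicates. The 2 spots of a clone on the same array also correlated weakly, at 0.083 to 0.317. The spread over arrays thus holds spread between spots as well, and its share was not tested. The limma test, adjusted by the Benjamini-Hochberg method over 8079 tested clones, called 33 clones higher and 130 lower at 0.05. That total of 163 calls was 1 without replicate 1 and 0 without replicate 2 or replicate 3, while it was 174 without replicate 4 and 99 without replicate 5. Clone names start with the plate that the clone was printed from. Plate 02 had a median ratio of -0.34 over its 384 clones, and 93.5% of them had a mean below 0. Of the 130 lower calls 94 were on plate 02 and 33 on plate 04, whose medians on the arrays averaged -0.20. The 7311 tested clones outside these plates had 32 higher and 3 lower calls in the same fit. Neuron markers (24 clones) had a median of -0.07, radial glia markers (21) -0.03 and oligodendrocyte markers (25) 0.02. Blood markers (13) had a median of -0.32, with medians on the arrays from -0.86 to 0.05. Means below 0 were found for 20 neuron, 13 radial glia, 10 oligodendrocyte and 11 blood clones, beside 51.0% of all tested clones. Of the neuron markers 2 were called lower, beside 1.61% of all tested clones, and none of the other groups named here had a call. Both of these neuron clones were on plate 02, where 24.5% of all clones were called lower. These values cover only the clones that the marker lists matched. The lowest radial glia marker had a mean of -0.17. Clones of plate 02 labelled EPD (ependymin) or glutamine synthase all had lower means and were not among the radial glia markers. No clone was described as a regional marker of the telencephalon (0 of the listed markers), so that the label of the tissue could not be checked beyond brain.

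None of the 48 GABA and glutamate clones was called, 0 higher and 0 lower, where 2.02% of all tested clones were called. That share differed by plate. On plate 02, with 9 members, 24.5% of all clones were called lower. Of the 7311 clones outside plates 02 and 04, 32 were called higher and 3 lower. All 48 passed the filter on dim clones. The smallest adjusted p among them was 0.0696 in the limma test, shared by a GABA:Na symporter clone, a GABA-A beta 4 clone and mitochondrial aspartate aminotransferase. The median over the 48 clones was -0.02, with medians of -0.09, -0.03, -0.02, -0.02 and 0.03 on the 5 arrays, and the median over all tested clones was -0.003. Of the 48 means, 28 lay below 0, against 51.0% of all tested clones. Without the 9 members on plate 02, the median of the other 39 was -0.002, beside 0.009 for all tested clones outside plates 02 and 04.

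At an unadjusted limma p under 0.05 there were 7 members, 4 lower and 3 higher, where this limit takes 14.3% of all tested clones, 8.06% lower and 6.29% higher. Of the 4 lower members 3 were on plate 02, on which the same limit takes 64.8% of all clones on the lower side. Outside the plate, 1 of 39 members was lower by that limit and 3 were higher, where it takes 3.05% and 6.87% of the clones outside plates 02 and 04. The 5 arrays agreed in sign for 7 members: 5 below 0 on all 5 arrays, where 7.66% of all tested clones were, and 2 above 0 on all 5, where 7.15% were. Of the 5 lower ones 3 were on plate 02, where 50.0% of all clones were below 0 on every array, and the 2 others compare with 3.94% of the clones outside plates 02 and 04, where 7.82% were above 0 on every array. The members' shares therefore lay near those of the whole array. Of the 48 members, 44 had a 95% interval that stayed within 0.5 log2 units of 0, and the widest limits reached -0.79 and 0.58. The intervals hold only for ratios with an offset of 50 added to both channels, which draws dim clones to 0. For 28 members the exposed channel was above background on 0 to 2 arrays. With plain background subtraction a clone could leave its interval, as GABA-A beta 2 (59g22) did at -0.59, against -0.31 to 0.11. A change of the size those intervals still hold cannot be told from none with 5 arrays.

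**Figure D1:**
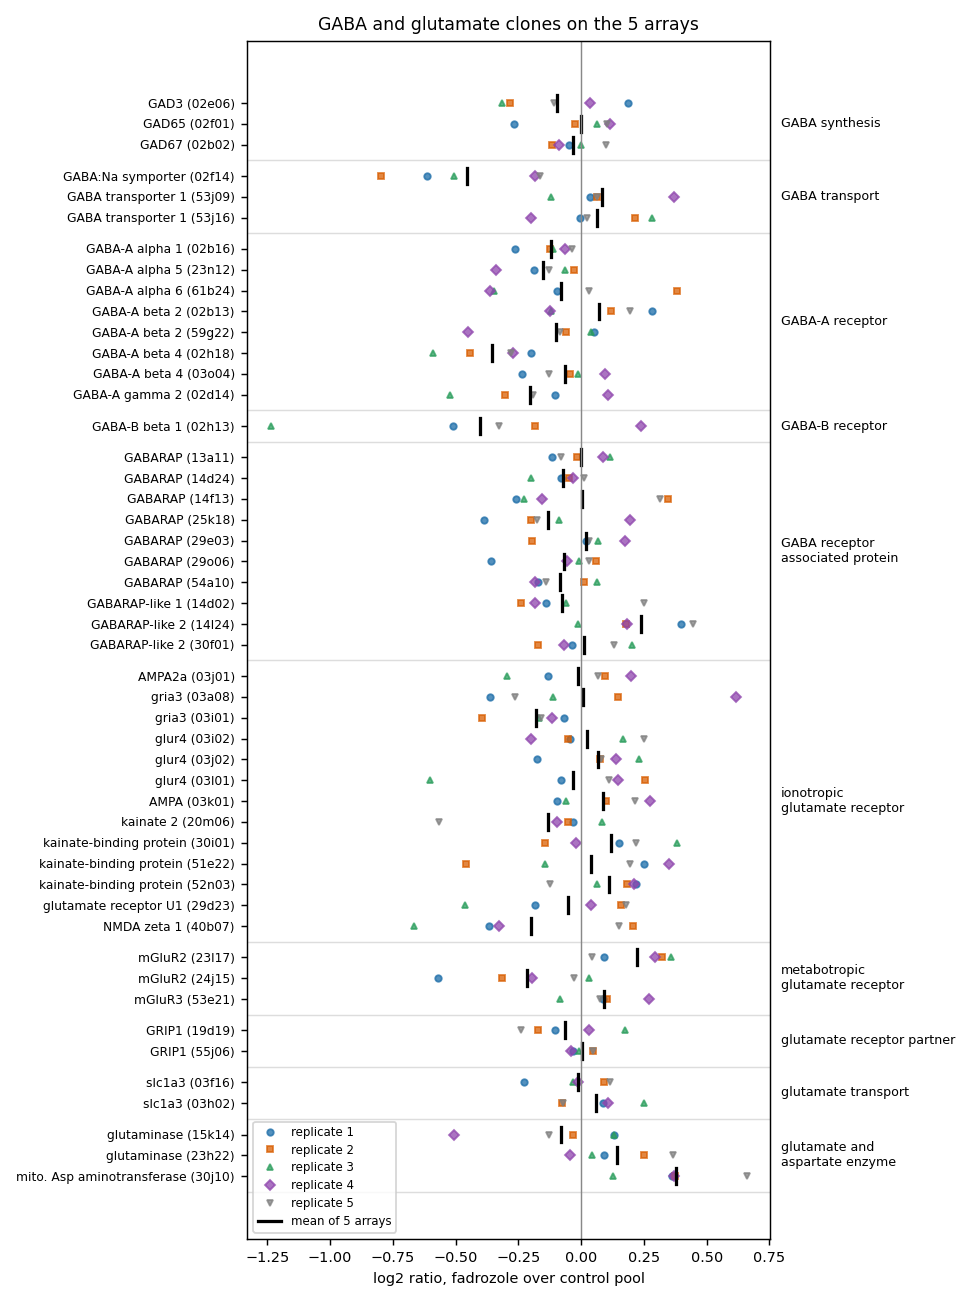
Log2 ratio of exposed over pool (x axis) for each of the 48 clones (rows, grouped by role), 1 symbol per array and a black bar at the mean of 5 arrays. Most clones spread to either side of 0, while mitochondrial aspartate aminotransferase stands above 0 and the GABA:Na symporter and GABA-A beta 4 (02h18) below 0 on all 5 arrays.

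The 3 enzymes that make GABA lay close to 0. GAD65 (clone 02f01), the isoform found mainly at nerve terminals, read -0.27, -0.02, 0.06, 0.11 and 0.10, a mean of -0.002 ± 0.16, with a 95% interval of -0.19 to 0.19. GAD67 (02b02), the isoform found throughout the neuron, read -0.05, -0.12, 0.0005, -0.09 and 0.10, a mean of -0.03 ± 0.08 with an interval of -0.20 to 0.14. For both, the arrays lay on either side of 0. GAD3 (02e06), a further isoform known from fish, read 0.18, -0.28, -0.32, 0.04 and -0.11, a mean of -0.10 ± 0.21 with an interval of -0.31 to 0.11. Replicates 2 and 3 were the low ones and replicate 1 the high one. None of the 3 passed the limma test (adjusted p 0.695 to 0.993). The exposed channel was above background on 4 arrays for GAD65 and GAD3 and on only 2 for GAD67. GAD67 passed the 95th percentile of the empty spots on 0 arrays in the pool channel and 1 in the exposed channel. Its ratio is thus near the floor, where the offset draws values to 0.

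All 3 GAD clones sat on plate 02, so that each can be set against the other clones of its plate. Less the plate's median on the same array, GAD65 stood at 0.35 ± 0.17, GAD67 at 0.32 ± 0.17 and GAD3 at 0.25 ± 0.19, each above 0 on 5 of 5 arrays. By mean ratio, the clones in the wells next to GAD67 and GAD65 also exceeded the plate's median. Those next to GAD3 lay on both sides of it. The plate's median does not remove differences between parts of the plate, and whether position in the plate explains the GAD values was not tested. In a limma fit with every source plate centered on its median, none of the 3 was called, nor any other member (adjusted p 0.175 for GAD65, 0.202 for GAD67 and 0.316 for GAD3). GAD65 ranked 26 and GAD67 33 from the top of the plate's 384 clones by mean ratio. In that centered fit 9 of the 48 members had an unadjusted p under 0.05, where 11.3% of all tested clones did.

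**Figure D2:**
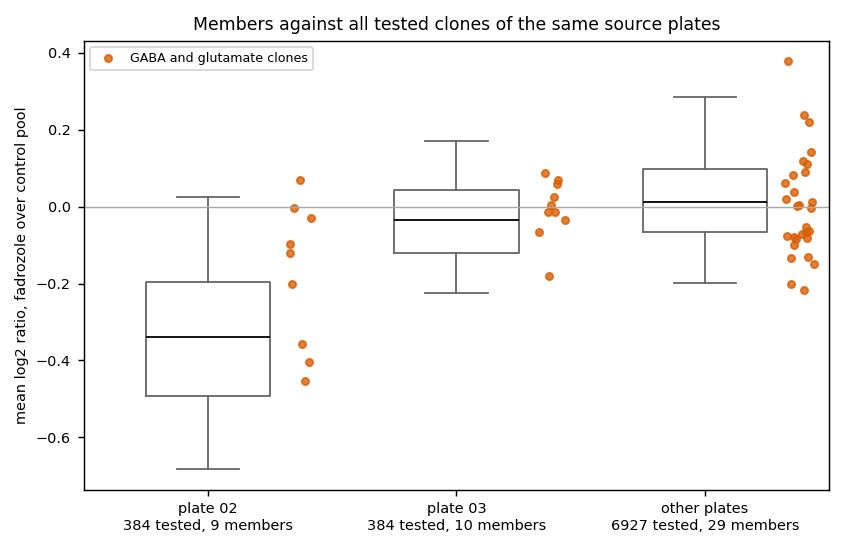
Mean log2 ratio of exposed over pool (y axis) for all tested clones of plate 02, plate 03 and the other plates (boxes from the lower to the upper quartile with the median, whiskers from the 5th to the 95th percentile), with the member clones as points. The box of plate 02 lies below 0, at a median of -0.34, and 6 of the 9 members there lie above that median.

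Of the 9 members on plate 02, 6 exceeded the plate's median on all 5 arrays, where 12.5% of all its clones did and 14.3% of its 210 clones with a gene description. This way of counting was chosen after the values were seen, and no test was made of it. The 6 were the GADs and the GABA-A subunits alpha 1, beta 2 and gamma 2, and the remaining 3 were GABA-A beta 4, the GABA:Na symporter and the GABA-B clone. Of the 6, 4 were dim in the exposed channel, above background there on 0 to 2 arrays. Among all 82 such dim clones of the plate 24.4% exceeded the plate's median on all arrays, against 9.27% of the 302 brighter ones. The parts of brightness and of the well on the plate in the members' standing were not tested.

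GABA transport was represented by a clone described only by its activity, GABA:Na symporter (02f14), and by a pair of clones of GABA transporter 1, which takes GABA back into neurons in mammals. The symporter clone had the lowest mean of all members: it read -0.61, -0.80, -0.51, -0.19 and -0.16, a mean of -0.45 ± 0.27, which is 1.37-fold lower, with an adjusted p of 0.0696 in the limma test. All 5 arrays were below 0, with replicates 4 and 5 nearest to it. Against its plate's median it stood at -0.10 ± 0.19, above it on 2 arrays. The GABA transporter 1 clones had means of 0.08 ± 0.18 (53j09) and 0.06 ± 0.19 (53j16), and their average lay above 0 on all 5 arrays at 0.07 ± 0.05, with a 95% interval of -0.08 to 0.22 and an adjusted p of 0.675 in the fit with clones of 1 gene averaged. GAT3, another GABA transporter whose description the word rule misses (02f16, plate 02), stood at -0.16 ± 0.13, which is 0.19 above its plate's median. The breakdown of GABA was also outside the rule's words: abat, which removes the amino group of GABA (02c14, plate 02), stood at -0.16 ± 0.50, between -0.54 and -0.26 on 4 arrays and at 0.72 in replicate 5. The mean of abat was 0.19 above its plate's median.

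Among the 8 clones of GABA-A receptor subunits, which form the chloride channel, 7 means were below 0 and 4 of the 8 were on plate 02. Means below 0 were found for 51.0% of all tested clones and for 93.5% of those on plate 02. The medians of the 8 on the arrays were -0.14, -0.05, -0.12, -0.20 and -0.11. Less their plate's median, the plate 02 clones stood at 0.42 (beta 2), 0.23 (alpha 1), 0.15 (gamma 2) and -0.007 (beta 4). Those of other plates, less their own plates' medians, stood at -0.03 (beta 4), -0.08 (alpha 6), -0.09 (beta 2) and -0.21 (alpha 5). GABA-A beta 4 (02h18) read -0.20, -0.44, -0.59, -0.27 and -0.28, a mean of -0.36 ± 0.16, 1.28-fold lower, with an adjusted p of 0.0696 in the limma test. Its mean differed from the plate's median by -0.007 ± 0.12. The other clone of the same subunit (03o04, plate 03) read -0.24, -0.04, -0.01, 0.09 and -0.13, a mean of -0.07 ± 0.12. Less its own plate's median, 03o04 stood at -0.03 ± 0.09. Without that centering the clones differed by 0.29 ± 0.24, the plate 02 clone being lower on 4 of 5 arrays.

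The beta 2 subunit showed the opposite order. Its plate 02 clone (02b13) read 0.28, 0.12, -0.12, -0.13 and 0.20, a mean of 0.07 ± 0.19, and was the only one of the plate's 9 members with a mean above 0. Its other clone (59g22) read 0.05, -0.06, 0.04, -0.45 and -0.08, a mean of -0.10 ± 0.20, with replicate 4 apart. Without replicate 4 its mean was -0.01, and with plain background subtraction it was -0.59.

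Alpha 1 (02b16), a common subunit of synaptic GABA-A receptors, and alpha 5 (23n12), a subunit known mainly from receptors outside synapses in mammals, were below 0 on all 5 arrays at small sizes. Alpha 1 read -0.26, -0.12, -0.11, -0.06 and -0.04, a mean of -0.12 ± 0.09, while its plate as a whole was lower. Alpha 5 read -0.19, -0.03, -0.06, -0.34 and -0.13, a mean of -0.15 ± 0.12, and lay below its own plate's median on 5 of 5 arrays, at -0.21 ± 0.11 against it. Neither passed the limma test (adjusted p 0.522 and 0.439). The exposed channel of each was above background on only 1 array. With no background subtraction the mean of alpha 5 was -0.06. Of the other subunits, alpha 6 (61b24) stood at -0.08 ± 0.31. Gamma 2 (02d14), which anchors the receptor at synapses in mammals, stood at -0.20 ± 0.23. The exposed channel of gamma 2 was not well above background on any array, and its 95% interval of -0.42 to 0.02 included 0 (adjusted p 0.396 in the limma test).

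A single clone was described as GABA-B beta 1 (02h13), a name that does not settle whether a GABA-B or a GABA-A subunit is meant. It read -0.51, -0.18, -1.23, 0.24 and -0.33, a mean of -0.40 ± 0.54, with the widest spread of all members. Replicate 3 was the lowest and replicate 4 above 0. The clone was on plate 02, and less that plate's median it stood at -0.05 ± 0.42, above 0 on 2 arrays. Its adjusted p was 0.327 in the limma test.

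GABA receptor associated proteins, small ubiquitin-like proteins that bind the GABA-A gamma 2 subunit and take part in autophagy, had the most clones, 10. The 7 clones of GABARAP itself had means between -0.13 (25k18) and 0.02 (29e03). Averaged, they read -0.05 ± 0.08, with a 95% interval of -0.20 to 0.11. This gene, measured most often, had one of the narrower intervals, which included 0. In the same fit GAD67, with 1 clone, had an interval of -0.19 to 0.13. That clone was dim, with its exposed channel above background on only 2 arrays. GABARAP-like 1 (14d02) stood at -0.08 ± 0.19. GABARAP-like 2 gave 0.40, 0.18, -0.01, 0.18 and 0.45 in one clone (14l24), a mean of 0.24 ± 0.19, and 0.01 ± 0.15 in the other (30f01). The first was above 0 on 4 arrays, and its adjusted p was 0.243 in the limma test.

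On the glutamate side, 13 clones of ionotropic receptors had means from -0.20 to 0.12, with a median of 0.01. AMPA receptor subunits carry most fast excitation. Clone 03i01 of gria3, the AMPA 3 subunit, read -0.07, -0.39, -0.17, -0.12 and -0.16, a mean of -0.18 ± 0.13, below 0 on all 5 arrays, with an adjusted p of 0.332 in the limma test. Its exposed channel was above background on 0 arrays, and its mean ran from -0.42 with plain background subtraction to -0.01 with none. The other gria3 clone (03a08) read -0.36, 0.15, -0.11, 0.62 and -0.26, a mean of 0.01 ± 0.39, and -0.15 without replicate 4. The average of the gria3 clones was below 0 on 4 of 5 arrays, at -0.09 ± 0.19, with a 95% interval of -0.29 to 0.11 and an adjusted p of 0.704 in the limma fit with clones of 1 gene averaged. The 3 clones of glur4, the AMPA 4 subunit, averaged 0.02 ± 0.10, AMPA2a (03j01) stood at -0.01 ± 0.20 and a clone named only AMPA (03k01) at 0.09 ± 0.16.

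Kainate receptors and their relatives gave small values of either sign. The kainate 2 subunit (20m06) stood at -0.13 ± 0.25, with replicate 5 at -0.56 and the other arrays between -0.10 and 0.08. In replicate 5 its pool channel stood high, at 884 scanner units against 96.7 to 183 on the other arrays. Kainate-binding protein, a short relative of kainate receptors known from fish, frogs and birds, averaged 0.09 ± 0.14 over 3 clones. One of these (51e22) was above background in the exposed channel on 0 arrays. Glutamate receptor U1 (29d23), named after a Xenopus receptor, stood at -0.05 ± 0.27. NMDA zeta 1 (40b07), the subunit common to NMDA receptors, read -0.37, 0.21, -0.66, -0.33 and 0.15, a mean of -0.20 ± 0.37, with 3 arrays below 0 and 2 above.

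Metabotropic receptor mGluR2, which dampens transmitter release, was represented by clones that disagreed. Clone 23l17 read 0.09, 0.32, 0.36, 0.29 and 0.04, a mean of 0.22 ± 0.14, above 0 on all 5 arrays. Clone 24j15 read -0.57, -0.32, 0.03, -0.20 and -0.03, a mean of -0.22 ± 0.24, below 0 on 4. The first exceeded the second on every array, by 0.44 ± 0.24 (exact two-sided sign-flip permutation test, p = 0.0625, the smallest that 5 arrays allow). Over the 9 genes with 2 clones each that were compared in this way, the adjusted value was 0.281 and the exact test could reach no smaller raw p. The average of the mGluR2 clones was 0.003 ± 0.16. Clone 23l17 was above background in the exposed channel on 5 arrays and 24j15 on 2. The related mGluR3 (53e21) stood at 0.09 ± 0.13.

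**Figure D3:**
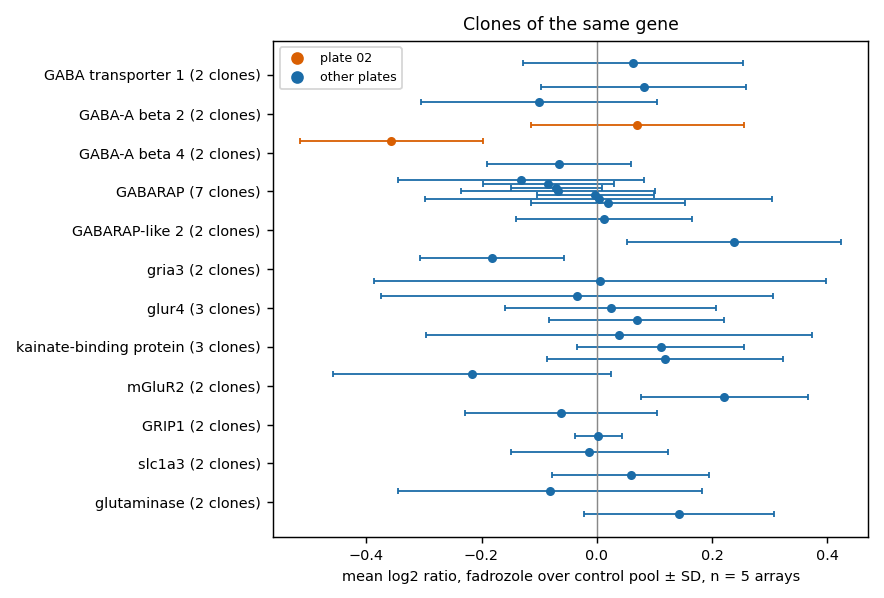
Mean log2 ratio of exposed over pool (x axis) with the SD over 5 arrays for every clone of the 12 genes with more than 1 clone (rows), with plate 02 clones in orange. The mGluR2 clones lie on opposite sides of 0 at 0.22 and -0.22, and the 7 GABARAP clones lie between -0.13 and 0.02.

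For the other genes with clones to compare, the clones differed by less than this. The mean difference within a pair ran from 0.02 (GABA transporter 1) to 0.29 (GABA-A beta 4), and the exact p from 0.125 to 0.812 over these 8 pairs. When clones of 1 gene were averaged before the limma fit, 0 of the 29 genes was called, where 1.63% of all 6875 genes and single clones were, and the smallest adjusted p was 0.0716.

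Clones for the scaffolding of glutamate receptors and for the transport of glutamate lay near 0. GRIP1, which binds the tails of AMPA receptors, stood at -0.06 ± 0.17 (19d19) and 0.003 ± 0.04 (55j06). The second had the smallest spread of all members. The glial glutamate transporter slc1a3 stood at -0.01 ± 0.14 (03f16) and 0.06 ± 0.14 (03h02). All of these GRIP1 and slc1a3 clones were dim. Their pool channel passed the 95th percentile of the empty spots on 0 arrays. The exposed channel was above background on 3 arrays for 55j06 and on 1 for each of the others.

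Of the enzymes, mitochondrial aspartate aminotransferase had the highest mean of all members. This enzyme moves the amino group between glutamate and aspartate and is used by all tissues in energy metabolism, not by transmission alone. Clone 30j10 read 0.36, 0.37, 0.13, 0.37 and 0.66, a mean of 0.38 ± 0.19, 1.30-fold higher, with a 95% interval of 0.18 to 0.58 and an adjusted p of 0.0696 in the limma test. All 5 arrays were above 0, and all were above the plate's median, by 0.34 ± 0.16. Its spots gave 506, 789, 639, 759.6 and 1359.5 scanner units in the pool channel and 906, 1504, 1785, 1901 and 1345 in the exposed channel, and both channels were above background on 5 arrays. Glutaminase had one clone at -0.08 ± 0.26 (15k14) and one at 0.14 ± 0.16 (23h22), with replicate 4 lowest in both.

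Detection differed widely among the members. The pool channel was above background on 5 arrays for 45 of the 48 and the exposed channel for 5, GABARAP (13a11), GABARAP-like 2 (14l24), kainate-binding protein (52n03), mGluR2 (23l17) and mitochondrial aspartate aminotransferase. The exposed channel reached that level on at least 3 arrays for 20 members and on 0 arrays for 3. Above the 95th percentile of the empty spots stood 4 to 25 of the 48 members in the exposed channel and 6 to 22 in the pool channel, by array. The 28 members above background on 0 to 2 arrays had means between -0.22 and 0.14, and the 20 others between -0.45 and 0.38. A dim clone's ratio is drawn to 0 by the offset added to both channels, and a change in the dim members would be understated.

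**Figure D4:**
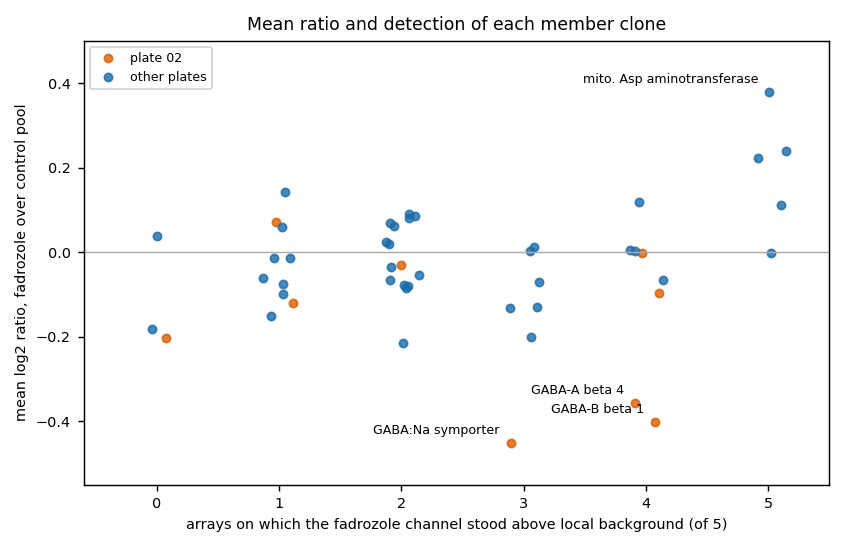
Mean log2 ratio of exposed over pool (y axis) against the number of arrays on which the exposed channel stood above local background (x axis, points shifted sideways to separate them) for the 48 members, with plate 02 in orange. Means farther than 0.3 from 0 are seen only among members above background on 3 to 5 arrays.

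When the test was limited to the 3309 clones with both channels above background on at least 3 arrays, 10.5% of them were called, and 3 of the 20 members that qualified were among these. Mitochondrial aspartate aminotransferase was called higher (4.02% of the clones were), and the GABA:Na symporter and GABA-A beta 4 (02h18) lower (6.47% were), with adjusted limma p values of 0.0283, 0.0248 and 0.0301. The ratios were those given above. Fewer clones shared the adjustment, and the prior variance was fitted anew on them. The part of each in these calls was not tested. With each plate centered on its median, the lower pair stood at -0.10 and -0.007 and mitochondrial aspartate aminotransferase at 0.34, with 0 clones called on the whole array.

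Beyond the members, 17 clones of a list of further genes of these synapses were measured, with GAT3 (given above) not counted among them, for receptor anchors and scaffolds, glial transport, glutamine synthesis and the supply of cofactor. Of these, 1 was called higher and 0 lower, beside 0.408% and 1.61% of all tested clones, and their median was -0.04. The called clone was pyridoxal kinase (30a06), which makes the cofactor of GAD and of aminotransferases, among many other enzymes. It read 0.56, 0.23, 0.24, 0.50 and 0.76, a mean of 0.46 ± 0.22, 1.37-fold higher, with an adjusted p of 0.0475 in the limma test. It stayed above 0 under all 19 alternatives, at 0.35 to 0.52, but its call was lost in 15 of them (adjusted p between 0.0173 and 0.179 over the 19), among them every omission of 1 array, plain or no background subtraction, the authors' values and the centering of plates. It came from the same source plate as mitochondrial aspartate aminotransferase, plate 30, whose median was 0.04. Gephyrin, the anchor of GABA-A and glycine receptors, stood at -0.41 ± 0.33 in one clone (54g21), below 0 on all 5 arrays, with an adjusted p of 0.130, and at -0.05 ± 0.19 in another (55l05). Glial transporter EAAT2 (53g05) stood at 0.12 ± 0.40, with replicate 1 at 0.81. The 4 listed clones of glutamine synthetase, the glial enzyme that returns glutamate to glutamine, stood between -0.10 and 0.09. Clones labelled glutamine synthase on plates 02 and 03 were not in the list, and their means all lay below that range.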

How the data were processed

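RNA from the telencephalon was measured on 5 two-colour cDNA arrays. Spot intensity and local background were deposited as linear brightness units of the scanner, with neither background subtraction nor crosstalk correction, per the file headers. Whether a spot's intensity is a mean or a median is not given in the sources used here. A processed value per spot, apparently log2, was deposited as well, with base, scaling and centring unstated. Log2 ratios computed here (plain subtraction, loess) correlated with it across spots at -0.996 to -1.00, with slopes of -0.73 to -0.81, and its columns had medians of -0.04 to 0.04 and all the same mean, -0.0046. It was therefore taken as pool over exposed, and multiplied by minus 1. Its rows were in another order than the scanner's spots and were matched through the printed position, which these correlations bear out.

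In limma 3.58.1 (R 4.3.3, statmod 1.5.0) the background was corrected by normexp with an offset of 50, and ratios were normalized within each array by loess with a span of 0.3. Spots flagged as ignored (0 to 29 per array) got weight 0, and a clone's value was the mean of its 2 spots. The filter asked for a signal 2 SDs over local background in either channel, for a share of 0.5 or more of the usable spots, on 3 arrays or more. The mean ratio was tested against 0, two-sided, with 4 residual and 5.244 prior degrees of freedom and Benjamini-Hochberg adjustment over 8079 clones. The code was tested on simulated data, in which the exposed signal was a multiple of the pool's and no plate shift was put in. That run did not copy the dimness of the measured exposed channel.

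The members, the gene and marker lists, the tests and the alternatives were chosen with earlier results of these data known. The rule for named genes took the GAD clones, called members, genes with at least 2 clones, and the lowest and highest clone of each role (38 clones of 19 genes). The other members are named as well, since each had to be accounted for, and the alternatives were run for all 48 and for 18 further clones of the pathway. Gene names are those the files pair with the clones. Replicates are independent groups of fish per the labels, and the ratios' spread includes no control animals. No clone sequence was used here.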

Additional observations from a re-analysis of the deposited data

Results flagged for a closer look

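Of 50 sets of 5 values examined, the 48 members and both medians over them, 3 had 1 array farther from the rest than Dixon's 95% critical value of 0.71 allows, and chance alone gives about 1 in 20. GABA-A beta 2 (59g22) was at -0.45 in replicate 4 and between -0.08 and 0.05 on the other arrays. GABARAP (29o06) was at -0.36 in replicate 1 and between -0.06 and 0.06 on the others. The kainate 2 subunit (20m06) was at -0.56 in replicate 5 and between -0.10 and 0.08 on the others. Its pool channel gave 884 scanner units in replicate 5 and 96.7 to 183 on the others. The exposed channel gave 311 there and 322 to 481 on the others, so that this low ratio went with a high signal of the shared pool. The 3 values came from 3 different arrays and all were low.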

How the results depend on the processing

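Each ratio already pairs both sides of the comparison within an array, and with 1 group no further pairing was possible. The number of clones called on the whole array was 163 and went to 59 with no background subtraction, 92 with scale normalization between arrays, 347 with both channels required above background, and 0 with plain subtraction, with the authors' values, with each source plate centered and with plates 02 and 04 left out. At an unadjusted limma p under 0.05 these last 4 settings still took 1043, 1126, 911 and 742 clones. Leaving out 1 array gave 0 to 174 calls. The remaining settings gave 112 to 211, the latter with the day of image quantification, on which replicate 1 stood apart, as a random block (estimated correlation -0.02). Members called were 3 with both channels required above background and 0 in all other settings, where 4 to 9 had an unadjusted limma p under 0.05. The cause of these changes was not tested. Fewer clones entered the test both under the stricter filter, with 347 calls, and under the omission of plates, with 0. The median over the members ran from -0.045 to 0.016, on the positive side only with plates centered, and that outside plates 02 and 04 from -0.035 to 0.016, within 1 SD of the values reported. Of 1206 values of the 48 members and 18 further clones under the alternatives, 1182 lay within 1 SD of the reported mean, and 9 of the 24 others came from centering the plates. Much of this count was fixed in advance. Leaving out 1 array cannot move a mean by 1 SD, and settings that change only the filter or the variance model leave it as it was. The count is therefore no measure of how robust the values are. The exposed channel was above background on 5 arrays for 5 members, and a ratio with a channel at background has only a bound.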
